A study of Homo sapiens with 28 samples.

Results

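The genes described here encode 35 aminoacyl-tRNA synthetases, the enzymes that join each amino acid to its transfer RNA. They were taken from a list of symbols. A cytosolic set held the 19 genes whose names end in 1, with FARSA and FARSB, and a mitochondrial set held the 16 genes whose names end in 2. Each of the 35 symbols matched a gene row in the table of 63139 gene rows used, and all 35 genes passed the filter on low counts.

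The RNA came from HepG2, a cell line grown from a human liver tumour, in 7 groups of 4 libraries (28 in all). Every group went without serum for 24 h and was then exposed for 24 h. The groups received water (H2O), cadmium chloride (CdCl2, 0.5 µM), the solvent DMSO, 2,3,7,8-tetrachlorodibenzo-p-dioxin (TCDD, 100 nM), perfluorooctane sulfonate (PFOS, 10 µM), bisphenol A (BPA, 75 µM) or tributyltin chloride (TBTCl, 0.1 µM). Water was the vehicle of CdCl2 and DMSO that of the other compounds. As a model, the series is limited to a single tumour line, and each compound was sequenced at a single dose and time. The TCDD and PFOS labels used here are those in force after the submitters exchanged them. The labels speak of 4 independent experiments, but they do not say which libraries came from which experiment. The p-values therefore measure the spread between these libraries.

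Each synthetase recognises an amino acid and the matching tRNAs, and protein synthesis in the cytosol and in mitochondria draws on separate enzymes, almost all encoded in the nucleus as separate genes. Several cytosolic enzymes sit in a multi-synthetase complex held together by the scaffold proteins AIMP1, AIMP2 and EEF1E1, and the others act free of it. When charged tRNA runs short or the endoplasmic reticulum is stressed, kinases of the integrated stress response phosphorylate the initiation factor eIF2, and the transcription factor ATF4 then switches on amino acid transporters, amino acid synthesis and many cytosolic synthetase genes. GARS1 and KARS1 each supply both compartments from a single gene, and mitochondrial glutaminyl-tRNA is made by EARS2 together with an amidotransferase that contains QRSL1.

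Total counts ran from 28.9 M to 66.0 M per library, with a median of 46.5 M. Levels are given in CPM, read counts per M counts with the library size scaled by TMM factors. As a share of the unscaled total, 3 counts corresponded to 0.0454 to 0.104 counts per M, a floor that covers counting error only. Of 8 hepatocyte markers all were detected in every group, led by ALB at 5950 to 24900 CPM. Markers of other cell types were lower, from the leukocyte gene PTPRC at 0 to 0.0236 CPM to ACTA2 at 20.7 to 54.9 CPM. The next highest of them was PECAM1 at 2.37 to 6.46 CPM. TBTCl replicate 4 stood apart from its group, with the lowest level of all 28 libraries for IARS1, LARS1, NARS1, EARS2, LARS2 and SARS2. Calls of synthetases that changed without it are given with both values.

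In DMSO, per kilobase of transcript, the cytosolic set had a median level of 52.5 CPM per kb (16.2 to 118) and the mitochondrial set of 8.83 CPM per kb (0.175 to 58.4). KARS1, the lysine enzyme, was highest at 118 ± 4.67 CPM per kb (SD, n = 4), followed by QARS1, the glutamine enzyme, at 101 ± 13.8 and SARS1, the serine enzyme, at 92.8 ± 14.5. The libraries of KARS1 (113 to 122) overlapped those of QARS1 (89.1 to 116), and QARS1 overlapped SARS1 (74.7 to 109). FARSB, a subunit of the phenylalanine enzyme, was the lowest of the cytosolic set at 16.2 ± 3.91 CPM per kb. This order depends on the transcript chosen for the length of each gene. For CARS1 that transcript has 2685 bases and all exons together cover 10037, while for FARSB both are 3369. In the mitochondrial set IARS2 stood first with 58.4 ± 2.29 CPM per kb, ahead of RARS2 with 33.0 ± 1.09 and CARS2 with 25.7 ± 3.24, and PARS2, SARS2 and VARS2 closed the order with 3.54, 2.11 and 0.175. SARS2 and VARS2 overlap a gene on the same strand in the GENCODE annotation and held 5838 and 797 counts over all libraries, so their values rest on the fewest reads of the 35. Exons of other members share bases with genes on the opposite strand, up to 370 in EARS2, 326 in CARS2, 271 in WARS1 and 176 in KARS1. An exon of HARS2 shares up to 152 bases with ZMAT2 on the same strand. The part of shared reads in these values was not tested.

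BPA raised the RNA of most cytosolic synthetases and left the mitochondrial set without a common direction. At an edgeR adjusted p under 0.05, 15 of the 19 cytosolic genes rose, 1 fell and 3 were not called. The largest rise was that of WARS1, the tryptophan enzyme, at 3.45-fold, followed by MARS1 (methionine) at 2.58-fold and SARS1 at 2.42-fold. The gene that fell was RARS1, the arginine enzyme. In the mitochondrial set 1 gene rose, 3 fell and 12 were not called. Over all 18849 genes tested, 17.3% were called higher under BPA and 17.6% lower. The median log2 fold change was 0.62 in the cytosolic set, 0.03 in the mitochondrial set and -0.02 over all genes. Levels of 17 of the 19 cytosolic genes lay above every DMSO library in every BPA library, and 1 lay below. In the mitochondrial set 3 lay above and 4 below. Of all genes tested, 20.1% lay above and 17.1% below. In bulk RNA, a change in all cells and a larger change in a part of them cannot be told apart, which holds for every result here.

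**Figure D1:**
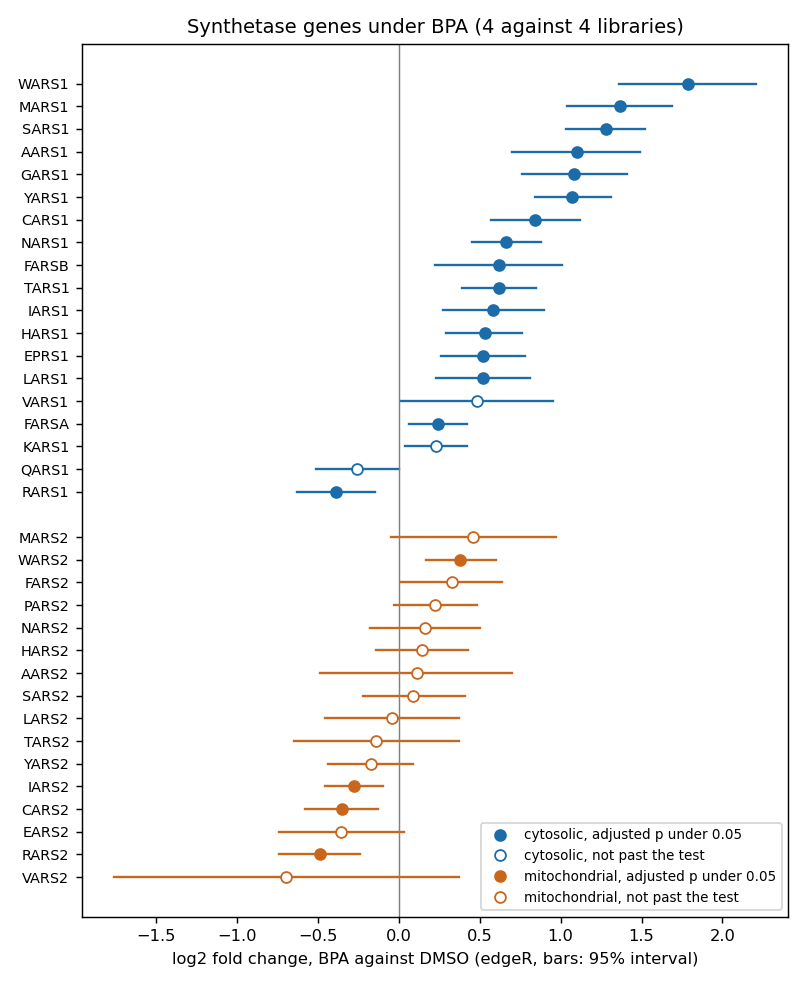
Log2 fold change of each of the 35 synthetase genes in BPA against DMSO (edgeR), with 95% intervals as bars. The 15 cytosolic genes that rose reach from FARSA at 0.24 to WARS1 at 1.79, while filled points of the mitochondrial set lie on both sides of 0.

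The summed level of the 19 cytosolic genes was 3075 ± 204 CPM in DMSO and 5119 ± 182 CPM in BPA (SD, n = 4). The 4 BPA libraries lay between 4956 and 5379 CPM and the 24 others between 2534 and 3399 CPM. The summed level of the 16 mitochondrial genes was 683 ± 31 CPM in DMSO and 620 ± 38 CPM in BPA, with BPA libraries at 584 to 670 CPM and DMSO libraries at 649 to 723 CPM, so that these groups overlapped. The ratio of the sums was 4.52 ± 0.453 in DMSO and 8.28 ± 0.689 in BPA. Single BPA libraries had ratios of 7.55 to 9.21, against 4.02 to 4.95 in DMSO and 4.18 to 5.00 in TCDD.

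**Figure D2:**
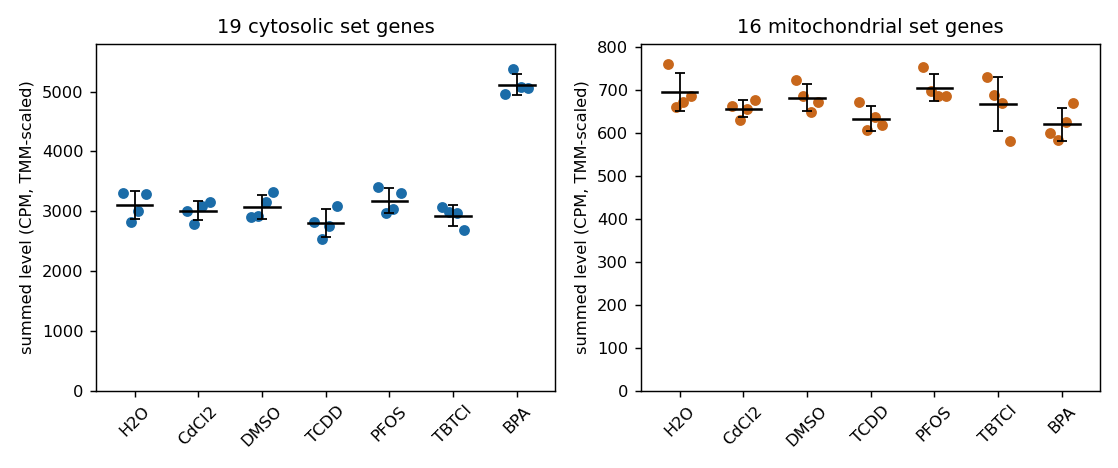
Summed TMM-scaled CPM of the cytosolic set (left) and the mitochondrial set (right) in each library, with the mean and SD of each group of 4. The BPA libraries stand above all others on the left at 4956 to 5379 CPM, and on the right they lie at 584 to 670 CPM, where the lower pair, at 584 and 600 CPM, is below all other libraries except TBTCl replicate 4 at 581 CPM.

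WARS1 (ENSG00000140105, chromosome 14, 100333788 to 100376805, minus strand, GRCh38) loads tryptophan. Its level was 76.8, 66.3, 64.5 and 96.3 CPM in DMSO replicates 1 to 4 and 273, 311, 224 and 241 CPM in BPA replicates 1 to 4. The lowest BPA library was above the highest library of any other group, PFOS replicate 1 at 114 CPM. The log2 fold change was 1.79 ± 0.20 (SE) with an adjusted p of 3.33e-07.

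MARS1 (ENSG00000166986, chromosome 12, 57475445 to 57517569, plus strand) loads methionine, including that of the initiator tRNA, and belongs to the complex. It was counted at 172, 141, 181 and 220 CPM in DMSO and at 449, 469, 472 and 451 CPM in BPA, a log2 fold change of 1.37 ± 0.16 (adjusted p 3.52e-07). The BPA libraries lay within a narrow band above all others. An exon of MARS1 shares up to 287 bases with DDIT3 on the opposite strand, and no source used here says whether counting was by strand. DDIT3 stood at 12.0, 14.5, 17.4 and 16.3 CPM in DMSO and at 75.8, 88.4, 66.1 and 47.4 CPM in BPA. The part of shared reads in the MARS1 values was not tested.

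SARS1 (ENSG00000031698, chromosome 1, 109213918 to 109238169, plus strand) loads serine, also onto the tRNA for selenocysteine. It was at 138, 166, 201 and 182 CPM in DMSO and at 385, 427, 442 and 412 CPM in BPA. Its log2 fold change was 1.28 ± 0.12 with an adjusted p of 1.13e-08, the smallest of the 35 genes. AARS1 (ENSG00000090861, chromosome 16, 70252295 to 70289543, minus strand), the alanine enzyme, was at 583, 631, 542 and 585 CPM in BPA. Its DMSO libraries were at 253, 216, 255 and 372 CPM, and the log2 fold change was 1.10 ± 0.19 (adjusted p 8.14e-05). DMSO replicate 4 was the highest DMSO library of AARS1 and still lay below every BPA library.

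GARS1 (ENSG00000106105, chromosome 7, 30594681 to 30634033, plus strand), the glycine enzyme of both compartments, was at 168, 178, 232 and 250 CPM in DMSO and at 416, 482, 457 and 395 CPM in BPA. It rose by 1.08 ± 0.16 on the log2 scale (adjusted p 9.73e-06). YARS1 (ENSG00000134684, chromosome 1, 32775237 to 32818153, minus strand), the tyrosine enzyme, was at 151, 141, 170 and 189 CPM in DMSO and at 326, 351, 347 and 347 CPM in BPA. It rose by 1.07 ± 0.11 (adjusted p 9.71e-08). In both genes the 4 BPA libraries were above all 24 others.

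Smaller rises followed. CARS1, the cysteine enzyme, was at 51.3, 57.8, 75.0 and 74.4 CPM in DMSO and at 119, 116, 115 and 113 CPM in BPA, a rise of 0.84 ± 0.13 on the log2 scale. NARS1 (asparagine) was at 190, 204, 201 and 188 CPM in DMSO and at 314, 332, 301 and 294 CPM in BPA, a rise of 0.66 ± 0.10. TARS1 (threonine) was at 129, 144, 158 and 147 CPM in DMSO and at 217, 243, 223 and 205 CPM in BPA, a rise of 0.62 ± 0.11. In none of these genes did a BPA library reach down to the DMSO range, and adjusted p was 3.11e-05, 2.49e-05 and 0.000107.

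HARS1, the histidine enzyme, was at 79.5, 70.0, 66.0 and 77.5 CPM in DMSO and at 107, 112, 101 and 103 CPM in BPA. It rose by 0.53 ± 0.11 (adjusted p 0.000943). The complex enzymes IARS1, LARS1 and EPRS1 rose by similar values with groups that did not overlap. IARS1, which loads isoleucine, was at 218, 247, 260 and 256 CPM in DMSO and at 345, 397, 344 and 384 CPM in BPA, a log2 fold change of 0.58 ± 0.15. LARS1, which loads leucine, was at 87.8 to 117 CPM in DMSO and at 143, 161, 152 and 140 CPM in BPA, a log2 fold change of 0.52 ± 0.14. EPRS1, a fused enzyme for glutamate and proline, was at 162, 152, 168 and 192 CPM in DMSO and at 232, 261, 235 and 237 CPM in BPA, a log2 fold change of 0.52 ± 0.12.

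The phenylalanine enzyme is built from FARSA and FARSB. FARSB was at 63.8, 44.3, 42.1 and 67.8 CPM in DMSO and at 77.7, 95.1, 82.1 and 79.4 CPM in BPA, and rose by 0.62 ± 0.19 (adjusted p 0.0138). FARSA was at 133, 125, 141 and 130 CPM in DMSO and at 150, 152, 153 and 170 CPM in BPA, and rose by 0.24 ± 0.09 (adjusted p 0.0324). Both subunits were above DMSO in every BPA library, and whether their changes differed was not tested.

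RARS1 (ENSG00000113643, chromosome 5, 168486445 to 168519299, plus strand), which loads arginine and sits in the complex, was at 117, 128, 109 and 97.7 CPM in DMSO and at 84.0, 85.7, 83.7 and 90.7 CPM in BPA. Every BPA library was below every DMSO library, and the log2 fold change was -0.39 ± 0.11 (adjusted p 0.00941). QARS1, the other complex enzyme with a negative value, was not called at -0.26 ± 0.12 (adjusted p 0.109), and its libraries overlapped at 252 to 328 CPM in DMSO and 198 to 289 CPM in BPA. VARS1, the valine enzyme, had a log2 fold change of 0.48 ± 0.23 (adjusted p 0.104) and KARS1 one of 0.23 ± 0.09 (adjusted p 0.0554). KARS1 was at 245, 245, 226 and 232 CPM in DMSO and at 264, 286, 285 and 275 CPM in BPA. For both genes, all BPA libraries were above all DMSO libraries.

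**Figure D3:**
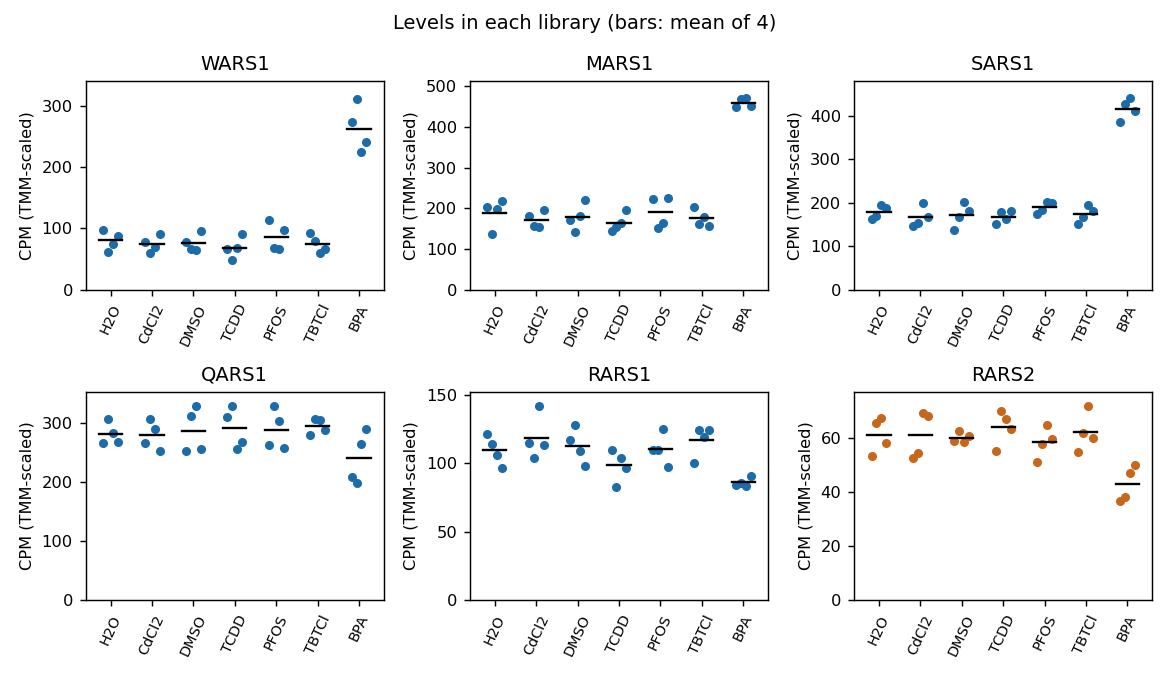
TMM-scaled CPM of WARS1, MARS1, SARS1, QARS1, RARS1 and RARS2 in each of the 28 libraries by group, with a bar at the mean of each group of 4. WARS1, MARS1 and SARS1 stand above every other group in BPA, QARS1 overlaps DMSO, and RARS1 and RARS2 lie below every DMSO library.

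By the structure of the enzymes, a grouping from textbook knowledge that was added after the values were seen, 4 of the 7 complex enzymes rose and 1 fell, with a median log2 fold change of 0.52. Of the 12 free enzymes 11 rose and none fell, with a median of 0.75. Of 9 class I enzymes 6 rose and 1 fell, and of 9 class II enzymes 8 rose, EPRS1 having a domain of each class. Of all genes tested, 17.3% were called higher and 17.6% lower under BPA. The difference between these groups of enzymes was not tested.

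The mitochondrial gene that rose was WARS2, the tryptophan enzyme of the organelle (ENSG00000116874, chromosome 1, 119031216 to 119140671, minus strand). It was at 15.0, 16.8, 18.4 and 16.9 CPM in DMSO and at 20.5, 22.1, 23.9 and 21.2 CPM in BPA, a log2 fold change of 0.38 ± 0.10 (adjusted p 0.00573). The groups did not overlap. The largest fall among called genes was that of RARS2, the mitochondrial arginine enzyme (ENSG00000146282, chromosome 6, 87514378 to 87590003, minus strand). RARS2 was at 58.7, 62.6, 58.3 and 60.5 CPM in DMSO and at 36.6, 37.9, 46.9 and 49.9 CPM in BPA, a log2 fold change of -0.49 ± 0.12 (adjusted p 0.00274). All 4 BPA libraries were below the lowest of the 24 others. Both arginine enzymes thus fell under BPA.

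CARS2, the mitochondrial cysteine enzyme (ENSG00000134905, chromosome 13, 110641412 to 110713603, minus strand), was at 56.9, 48.3, 43.9 and 44.1 CPM in DMSO and at 41.5, 35.1, 36.0 and 38.4 CPM in BPA. It fell by 0.35 on the log2 scale, with an SE of 0.11 and an adjusted p of 0.0142. IARS2, the isoleucine enzyme and the most abundant of the set (ENSG00000067704, chromosome 1, 220094102 to 220148041, plus strand), was at 214, 207, 197 and 214 CPM in DMSO and at 164, 164, 178 and 179 CPM in BPA. It fell by 0.28, with an SE of 0.09 and an adjusted p of 0.0124. In both genes every BPA library was below every DMSO library.

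Among the 12 mitochondrial genes not called, log2 fold changes ran from -0.70 ± 0.51 for VARS2 to 0.46 ± 0.25 for MARS2, the methionine enzyme. MARS2 was at 25.6, 26.0, 21.0 and 20.3 CPM in DMSO and at 29.4, 35.2, 31.2 and 32.3 CPM in BPA. Libraries of MARS2 and FARS2 (0.33 ± 0.15, adjusted p 0.0931) were all above DMSO, and those of EARS2 (-0.36 ± 0.18, adjusted p 0.134) all below. AARS2, HARS2, LARS2, NARS2, PARS2, SARS2, TARS2, VARS2 and YARS2 overlapped DMSO. The 95% interval of LARS2 ran from -0.46 to 0.37 and that of HARS2 from -0.14 to 0.43. HARS2 starts 436 bases from the start of HARS1 on the opposite strand, and exons of the pair share up to 331 bases. HARS2 was at 23.2, 18.3, 17.0 and 19.9 CPM in DMSO and at 23.5, 22.0, 19.4 and 21.4 CPM in BPA.

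For the same amino acid, 15 pairs of a cytosolic and a mitochondrial gene could be set against each other within each library. FARS2 was set against both FARSA and FARSB. In 9 pairs the ratio was higher in every BPA library than in every DMSO library, in 0 it was lower, and in 6 it overlapped. The share of such ratios over other pairs of genes was not computed. The median difference of mean log2 ratios was 0.87. The tryptophan pair moved by 1.41, from a mean log2 ratio of WARS1 to WARS2 of 2.16 to 3.57. The histidine pair moved by 0.38, with ratios of 1.78 to 1.96 in DMSO and 2.18 to 2.37 in BPA. The arginine pair overlapped, with a difference of 0.12 and ratios of 0.69 to 1.03 in DMSO and 0.84 to 1.20 in BPA. The pair of FARSA and FARS2 overlapped as well, with a difference of -0.10.

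Cytosolic levels also varied less among the BPA libraries. The median coefficient of variation of the 19 genes was 5.91% in BPA and 11.3% to 13.1% in the other 6 groups. For the mitochondrial set it was 11.9% in BPA and 10.8% to 17.1% elsewhere. This difference in spread was not tested.

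Several limits touch these calls. When BPA and DMSO libraries were paired by number in a replicate block, KARS1 (adjusted p 0.034), VARS1 (0.00457), FARS2 (0.0342) and MARS2 (0.0436) were called higher as well. The call of FARSA was lost without DMSO replicate 1 (adjusted p 0.0612), 2 (0.114) or 4 (0.0688) and without BPA replicate 2 (0.0555) or 4 (0.105). That of FARSB was lost without DMSO replicate 2 (0.0654) or 3 (0.0552) or BPA replicate 2 (0.0552), and that of CARS2 without DMSO replicate 1 (0.0786) or BPA replicate 2 (0.0511). QARS1 was called lower without BPA replicate 4 (adjusted p 0.0347). Without TBTCl replicate 4, KARS1 was called higher (0.0315) and EARS2 lower (0.015). Upper-quartile scaling moved the median of all genes by -0.13 and library size alone by -0.12, turning the 3268 higher and 3320 lower calls into 2239 and 4345, or 2169 and 4321. Under both, QARS1 was called lower at -0.38 and FARSA was not called at 0.11 and 0.12. Upper-quartile scaling also ended the call of WARS2 (adjusted p 0.069) and added EARS2 as lower (0.0346), and library size alone ended that of FARSB (0.0624). Without the filter on low counts WARS2 (adjusted p 0.115), CARS2 (0.0709), IARS2 (0.13) and FARSA (0.362) were not called. No direction of a called synthetase reversed under any scaling. Summed markers of other cell types were 29.1 to 41.8 CPM in BPA and 42.3 to 53.9 CPM in DMSO, with 7 of 8 detected in each, PTPRC at 0 to 0.0236 CPM and CD68, COL3A1 and LUM at 0 in some libraries. Hepatocyte markers summed to 24600 to 38600 CPM in BPA and 35100 to 65100 CPM in DMSO. HNF4A alone among them had a higher mean in BPA, at 502 to 544 CPM against 337 to 415 CPM in DMSO. The part of the markers in these results was not tested.

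Promoter windows of 250 bases before to 50 bases after the gene start were at hand for 30 of the 35 genes, from RefSeq on GRCh38.p14, and were searched on both strands for TGATGNAA, the core of the composite element bound by ATF4 with a C/EBP partner. It occurred in 3.62% of all 35116 windows. In the cytosolic set 6 of 16 windows held it (37.5%) and in the mitochondrial set 1 of 14 (7.14%). All 6 of those cytosolic genes rose under BPA, as did most of the cytosolic set. Among the 35 genes, 14 windows belonged to genes that rose, and 6 of these held it (42.9%). It was in 0 of 4 windows of genes that fell and in 1 of 12 of genes not called. Among other gene lists, it was in 5 of 24 windows of integrated stress response genes (20.8%). It was in 0 of 3 windows of scaffold genes and in 0 of 9 of genes related to tRNA charging. These lists held rises under BPA too, as given below. The windows of WARS1, SARS1, GARS1, EPRS1, FARSA, FARSB, HARS1 and WARS2, also risers, and of RARS1 did not hold these letters. In 6 of the 7 synthetase windows with a match, the match read TTGCATCA or its reverse complement. The search fixed every base except N, so this recurrence comes largely from the search. The sequences of these windows are shown so that the bases around each match can be read. Each is 30 bases on the strand of the gene, with the match in capitals.
TARS1, chr5:33440956-33440985: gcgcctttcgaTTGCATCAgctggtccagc
IARS1, chr9:92293692-92293721: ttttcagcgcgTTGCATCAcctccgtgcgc
CARS1, chr11:3057407-3057436: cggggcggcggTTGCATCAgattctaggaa
MARS1, chr12:57488053-57488082: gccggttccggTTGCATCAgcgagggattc
AARS1, chr16:70289675-70289704: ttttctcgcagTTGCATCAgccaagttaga
NARS1, chr18:57621804-57621833: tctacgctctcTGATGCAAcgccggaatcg
YARS2, chr12:32756076-32756105: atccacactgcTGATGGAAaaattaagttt
In IARS1, CARS1 and MARS1 the match began 13, 2 and 4 bases before the start, in TARS1 and NARS1 it lay within the transcribed part, and in AARS1 and YARS2 it began 187 and 197 bases before the start. The start is the RefSeq start of the 1 window kept per listed gene, while the 35116 windows were not reduced in this way. The MARS1 window, chr12:57487818-57488117, lies well past the gene start of 57475445 given above. A match describes letters in a window and does not show binding.

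Other genes of tRNA charging moved alongside under BPA. Of the 3 scaffold genes AIMP2 rose by 0.86 ± 0.13 on the log2 scale (adjusted p 2e-05), from 39.3 to 46.5 CPM in DMSO libraries to 71.4 to 86.6 CPM in BPA. AIMP1 rose by 0.54 ± 0.19 (adjusted p 0.0302) with overlapping groups, and EEF1E1 was not called at 0.51 ± 0.24 (adjusted p 0.107). Without DMSO replicate 1 (adjusted p 0.082) or 4 (0.1), or BPA replicate 2 (0.145) or 3 (0.0628), AIMP1 was not called either. Of 10 related genes 5 rose and none fell, where 17.3% of all genes were called higher and 17.6% lower. XPOT, the exporter of tRNA from the nucleus, rose by 1.26 ± 0.14 (adjusted p 1.54e-07), from 126, 124, 145 and 158 CPM to 315, 339, 349 and 325 CPM. SEPSECS and PSTK turn the serine that SARS1 loads into selenocysteine. SEPSECS rose by 1.09 ± 0.17 and PSTK by 0.56 ± 0.15. DTD1 and DTD2 remove wrongly loaded amino acids and rose by 0.83 ± 0.22 and 0.49 ± 0.17. The call of DTD2 was lost without DMSO replicate 2 (adjusted p 0.0751), 3 (0.0924) or 4 (0.0505) and without BPA replicate 2 (0.0581) or 3 (0.0976). Over all 17 alternative runs, those with other settings included, the call was lost in 7 for AIMP1, 8 for DTD2 and 1 for PSTK.

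Of 30 genes of the integrated stress response, 26 rose and 1 fell under BPA. Of all genes, 17.3% were called higher and 17.6% lower. The median log2 fold change of the 30 was 1.28. The largest change among them was that of GDF15, a secreted stress cytokine, at 2.75 ± 0.18, from 326 to 394 CPM in DMSO to 1680 to 3000 CPM in BPA. NUPR1, a stress-induced nuclear protein, rose by 2.28 ± 0.26, and DDIT3, the transcription factor CHOP, by 2.20 ± 0.22. FGF21, a liver hormone, rose by 2.20 ± 0.46 at levels of 0.505 to 0.762 CPM in BPA, and its lowest DMSO library, at 0.0305 CPM, was under the level of 3 counts. ATF4, named after its value was seen, rose by 0.80 ± 0.19 (adjusted p 0.00171), from 383 to 570 CPM to 751 to 935 CPM. The gene that fell, EIF2AK4, also named after its value was seen, encodes GCN2, the kinase that senses uncharged tRNA. It was at 120, 161, 162 and 114 CPM in DMSO and at 76.5, 70.2, 84.5 and 92.5 CPM in BPA, a log2 fold change of -0.79 ± 0.15 (adjusted p 0.000267).

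In the machinery that uses mitochondrial charged tRNA, 3 of 24 genes rose and none fell under BPA, with a median log2 fold change of 0.09. Of all genes tested, 17.3% were called higher and 17.6% lower, so this list held a smaller share of calls in each direction. MTIF2, the mitochondrial initiation factor, rose by 0.45 ± 0.11. MRPS30, a mitochondrial ribosomal protein, rose by 0.42 ± 0.11 and QRSL1 by 0.37 ± 0.14. With library size alone MTIF2 (adjusted p 0.0656) and MRPS30 (0.0583) were not called, and without the filter MRPS30 was not (0.0536). The call of QRSL1 was lost with upper-quartile scaling (adjusted p 0.168), library size alone (0.188) or no filter (0.156), without DMSO replicate 1 (adjusted p 0.0671) or 4 (0.106) and without BPA replicate 1 (0.0705), 2 (0.0985) or 3 (0.0524). Apart from QRSL1, the subunits of the amidotransferase on the list, GATB and GATC, were not called at -0.14 ± 0.08 and -0.25 ± 0.12.

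TCDD, the ligand of the aryl hydrocarbon receptor, changed few synthetases. Over all genes 9.25% were called, 6.45% higher and 2.80% lower. In the cytosolic set 0 genes rose and 1 fell, and in the mitochondrial set 0 were called. The gene that fell was LARS1 (ENSG00000133706, chromosome 5, 146113038 to 146182660, minus strand), which loads leucine. LARS1 was at 87.8, 114, 117 and 97.7 CPM in DMSO and at 82.9, 65.7, 76.5 and 81.0 CPM in TCDD, and the groups did not overlap. Its log2 fold change was -0.44 ± 0.14, with an adjusted p of 0.0448. The call was lost without DMSO replicate 2 (adjusted p 0.113), 3 (0.136) or 4 (0.0525), without TCDD replicate 2 (0.175), 3 (0.0877) or 4 (0.0533), and against water in place of DMSO (0.119). Levels of 2 cytosolic genes, LARS1 and NARS1, and of MARS2 lay below every DMSO library, as did 5.95% of all genes.

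MARS2 (ENSG00000247626, chromosome 2, 197705369 to 197708387, plus strand) was at 25.6, 26.0, 21.0 and 20.3 CPM in DMSO and at 19.4, 10.1, 11.0 and 14.6 CPM in TCDD. Its log2 fold change was -0.75 ± 0.25 with an adjusted p of 0.0547, and 0.0303 by DESeq2. Without TCDD replicate 1 it was called at -0.98 (adjusted p 0.0173). Without TBTCl replicate 4 it was called at -0.76 (adjusted p 0.0131), as was EARS2 at -0.42 (adjusted p 0.0134). With that library in the fit EARS2 was not called at -0.41 ± 0.18 (adjusted p 0.187). EPRS1 was called at -0.45 without TCDD replicate 4 (adjusted p 0.0376), and had a value of -0.33 ± 0.12 (adjusted p 0.104) with it. The median log2 fold change under TCDD was -0.17 in the cytosolic set, 0.02 in the mitochondrial set and -0.01 over all genes.

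Of the 30 integrated stress response genes, 6 rose and 2 fell under TCDD, where 6.45% of all genes rose and 2.80% fell. The median of the 30 was -0.11. SLC7A5 and SLC3A2, which together form a carrier for large neutral amino acids such as leucine, rose by 1.85 ± 0.19 and 1.17 ± 0.20. NUPR1 rose by 1.29 ± 0.25 and ATF3, a stress-induced transcription factor, by 1.22 ± 0.30. The genes that fell, named after their values were seen, were PSPH (-0.35 ± 0.08) and PSAT1 (-0.50 ± 0.13) of serine synthesis. In the lists of scaffolds, related genes and mitochondrial translation, 0 genes were called under TCDD.

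None of the 35 genes was called under TBTCl, PFOS or CdCl2, nor in DMSO against water. Over all genes 0.143% were called under TBTCl, 0.0159% under PFOS, 0.0212% under CdCl2 and 0% for DMSO against water. At an unadjusted p under 0.05 edgeR gave 2937, 1043, 940 and 431 of 18849 genes. If no gene changed, a share of about 0.05 of all genes would pass that threshold. DESeq2 called none of the 35 in these comparisons either. Under TBTCl the cytosolic set ran from -0.29 to 0.05 and the mitochondrial set from -0.33 to 0.17, with medians of -0.03 and -0.01. Without TBTCl replicate 4 the medians were 0 and 0.07 and none of the 35 was called. The 95% interval of WARS1 under TBTCl was -0.45 to 0.38 and that of IARS1, where replicate 4 stood at 119 CPM and the others at 222 to 236 CPM, was -0.60 to 0.02. Under PFOS the cytosolic set ran from -0.03 to 0.18 and the mitochondrial set from -0.26 to 0.22, and the interval of WARS1 was -0.23 to 0.59. Under CdCl2 the cytosolic set ran from -0.27 to 0.17 and the mitochondrial set from -0.55, for AARS2, to 0.12. The interval of AARS2 was -1.15 to 0.05. The solvent moved the cytosolic set by -0.12 to 0.08. A gene not called is not shown to have been unaffected.

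**Figure D4:**
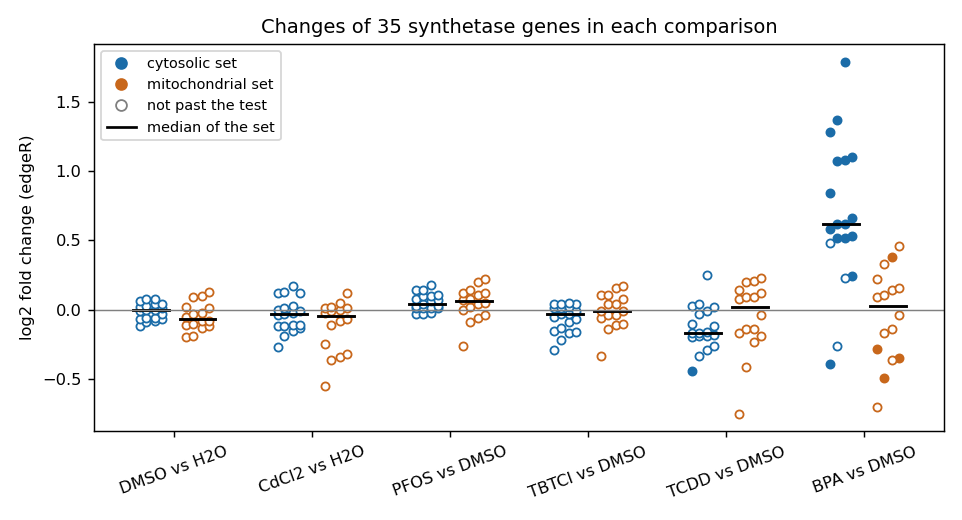
Log2 fold changes (edgeR) of the 19 cytosolic and 16 mitochondrial genes in each comparison with the vehicle, and in DMSO against water, with filled points for adjusted p under 0.05 and a bar at the median of each set. The cytosolic median stands at 0.62 in BPA, at -0.17 in TCDD and between -0.03 and 0.04 in the other 4 comparisons.

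Direct contrasts tested whether the levels under BPA differed from those under the other compounds, and all of them use the same BPA libraries. Against TCDD 16 of the 35 genes were called higher and 1 lower, where 17.8% and 20.4% of all genes were. Against TBTCl 17 were called higher and 3 lower (16.7% and 18.1% of all genes). Against PFOS 14 were called higher and 4 lower (15.3% and 15.3%). For CdCl2, which had its own vehicle, the change under BPA minus the change under CdCl2 was called higher for 13 and lower for 2 (8.70% and 7.81%).

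WARS1 was higher in BPA than in TCDD by 1.94 ± 0.20 on the log2 scale, than in TBTCl by 1.82 ± 0.20 and than in PFOS by 1.61 ± 0.20, and its change exceeded that under CdCl2 by 1.90 ± 0.28 (adjusted p 5.66e-05). SARS1 was higher by 1.31, 1.27 and 1.14, each with an SE of 0.12, and by 1.38 ± 0.16 for CdCl2. MARS1 was higher by 1.49, 1.39 and 1.26, each with an SE of 0.16. RARS2 was lower in each contrast, with log2 differences of -0.57, -0.53 and -0.44, each with an SE of 0.12, and of -0.49 ± 0.17 for CdCl2 (adjusted p 0.0477). RARS1 was lower than in TBTCl, at -0.44 ± 0.11, and than in PFOS, at -0.36 ± 0.11. Against TCDD, where RARS1 itself stood at 98.6 ± 11.7 CPM, RARS1 was not called. LARS1 and MARS2, with the lowest fold changes of their sets under TCDD, were higher in BPA than in TCDD by 0.96 ± 0.14 and 1.22 ± 0.25, and KARS1 was higher by 0.39 ± 0.09 (adjusted p 0.0014). FARS2 was at 14.0, 10.9, 14.9 and 13.0 CPM in water and at 10.7, 9.59, 7.49 and 13.4 CPM in CdCl2, and at 14.2, 11.1, 10.7 and 13.8 CPM in DMSO and 15.1, 14.5, 15.4 and 17.5 CPM in BPA. With a fitted change of -0.36 ± 0.15 under CdCl2 and 0.33 ± 0.15 under BPA, neither of them called, it was called for their difference at 0.68 ± 0.21 (adjusted p 0.0296).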

How the data were processed

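Poly(A) RNA was sequenced from directional libraries. The authors deposited integer read counts per gene, and the submitters' processing notes list fastp, STAR, HTSeq, DESeq2 and the build GRCh38, with no versions. Which annotation was used for counting, and whether strand was, is not stated in any source used here. The table held 63140 gene rows. The last was dropped, since no line break follows it and its values may be cut short, and 62541 of the 63139 others had a symbol. filterByExpr (minimum count 10) kept 18849 genes with 99.96% of the counts.

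All 28 libraries entered a single edgeR 4.0.16 quasi-likelihood fit (R 4.3.3, TMM factors 0.861 to 1.07, 7 group means, 21 residual degrees of freedom, biological coefficient of variation 22%). Benjamini-Hochberg adjusted p-values cover all genes tested, with a threshold of 0.05. CPM are TMM-scaled, and the SE is the log2 fold change over the square root of F. The fit was tested on simulated data. Replicates differed beyond counting error (chi-square 24.8 to 334 for each gene on average), so none was deposited more than once. Alternatives were DESeq2 1.42.0, other scalings, no filter, the replicate block, fewer groups, water as control and libraries left out. Leaving out TBTCl replicate 4 where it was not compared, and leaving out VARS2 and SARS2, were chosen after seeing the data. Positions, lengths (principal transcript with the longest coding part) and overlaps came from GENCODE 29, which may differ from the counting annotation.

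Equal replicate numbers deviated together for BPA and DMSO (r 0.173 to 0.269), TBTCl (0.249 to 0.528), PFOS (0.425 to 0.593), CdCl2 and water (0.123 to 0.540) and DMSO and water (0.181 to 0.627), which was taken as pairing, but not for TCDD (-0.212 to 0.439). The reported fit left this pairing out, and the replicate block entered as an alternative only. Members and lists were chosen with earlier results of these data known. Every member could be named. Given library by library were the 6 largest rises and falls among calls under BPA and members called in any other comparison. From the other lists, called scaffold and related genes were named, and the 4 largest called changes per comparison of the stress response and mitochondrial translation lists.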

Additional observations from a re-analysis of the deposited data

Results flagged for a closer look

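In a test for a library far from the other 3 of its group, 13 of 259 groups stood out, and chance flags about 1 in 20 groups. In the cytosolic set the libraries were AARS1 in TBTCl replicate 1 at 292 CPM (others 224 to 235), EPRS1 in BPA replicate 2 at 261 CPM (232 to 237) and FARSA in BPA replicate 4 at 170 CPM (150 to 153). IARS1 in TBTCl replicate 4 stood at 119 CPM (222 to 236), KARS1 in PFOS replicate 1 at 258 CPM (235 to 239) and LARS1 in CdCl2 replicate 3 at 130 CPM (101 to 106). YARS1 stood at 193 CPM in TCDD replicate 4 (157 to 162) and at 326 CPM in BPA replicate 1 (347 to 351). In the mitochondrial set LARS2 stood at 80.3 CPM in H2O replicate 1 (60.0 to 61.9) and at 67.7 CPM in TCDD replicate 1 (51.2 to 53.1), VARS2 at 1.13 CPM in TCDD replicate 4 (0.497 to 0.566) and WARS2 at 18.6 CPM in H2O replicate 4 (17.8 to 17.9). The summed mitochondrial set was 754 CPM in PFOS replicate 1 and 686 to 697 CPM in the others.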

How the results depend on the processing

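Of the 20 synthetases called under BPA, 14 of 16 cytosolic and 1 of 4 mitochondrial genes kept their call under every alternative run. The count of cytosolic genes called stayed at 15 to 18, and at 14 to 17 with a library left out. The mitochondrial count (4 as reported) was 1 without the filter on low counts, 6 with the replicate block, 6 with only the groups compared and 3 to 5 with a library left out. Under TCDD the cytosolic count (1) was 0 with library size alone, 0 without the filter, 0 against water, 2 with the replicate block and 0 to 1 with a library left out. The mitochondrial count (0) was 1 by DESeq2, 1 with upper-quartile scaling, 1 without the filter, 1 with the replicate block and 1 with only the groups compared. It was 0 to 1 with a library of TCDD or DMSO left out and 2 without TBTCl replicate 4. The count for BPA minus CdCl2 (15) was 7 without the filter. In each of these cases the cause was not tested. Equal numbers did not pair TCDD libraries, where the block added EPRS1 (adjusted p 0.0287) and MARS2 (0.00767). The replicate block gave 18 cytosolic calls under BPA and 20, 23, 22 and 19 calls in the contrasts with TCDD, TBTCl, PFOS and CdCl2, and it ended no call of a synthetase under BPA. Of 28 libraries 23 correlated best with their own number. Counts under TBTCl, PFOS and CdCl2, and for DMSO against water, were 0 in every alternative. No named gene reversed. Depth limits VARS2, at 0.128 to 1.16 CPM.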

Other observations

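Several synthetases differed by replicate number across the 7 groups. HARS1, VARS1, FARSB and AARS2 were higher in replicates 1 and 4 than in replicates 2 and 3 in 5 of the 7 groups, HARS2 and TARS2 in 6, while QARS1 was lower there in 5. In DMSO, VARS1, the valine enzyme, was at 220 and 205 CPM in replicates 1 and 4 and at 164 and 155 CPM in replicates 2 and 3, and TARS2, the mitochondrial threonine enzyme, at 32.4 and 34.0 CPM against 22.4 and 18.9 CPM. In BPA, VARS1 stood at 262, 270, 258 and 248 CPM, so that its replicates did not split in this way. AARS2 and TARS2 were higher in replicates 1 and 4 in BPA too, and FARSB ran the other way there, at 77.7 and 79.4 CPM in replicates 1 and 4 and 95.1 and 82.1 CPM in replicates 2 and 3. The genes named are those with the most such groups among the 35. The share of all genes that split in this way was not computed. The splits are therefore not shown to be particular to synthetases. The labels do not say what the numbers stand for, and these splits were not tested.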
